A study of Mus musculus with 8 samples.

Results

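The collagen genes were taken as every probe set of the array whose annotation gave a single gene symbol made of Col, a type number, the letter a and a chain number. This rule found 58 probe sets of 36 genes, among 22626 probe sets without controls and 12393 genes. It used names alone and no measured value, although it was chosen with earlier results of these data known. The 36 genes were 9 fibrillar chains, 9 chains of the basement membrane, 3 of beaded filaments, 9 fibril-associated, 2 of short-chain networks, 3 transmembrane and 1 of another kind.

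The tissue was ventral prostate, taken from FVB males aged 8 weeks. Of 8 arrays, 4 were from wild-type mice and 4 from mice transgenic for the polyoma virus middle T antigen (MT), a viral oncoprotein, and the comparison asked how prostate carcinoma induced by MT differs from normal prostate. Neither the promoter that drives the transgene nor the founder line is stated in the labels. No label says whether each array is a different animal, so the p-values measure the spread of these samples alone, and that spread could be technical. Levels are log2 signals, differences are MT minus wild type with the standard error of a limma fit, and "passed" means an adjusted p (Benjamini-Hochberg over 12393 genes) under 0.05. Each gene is represented by its brightest probe set (mean of 8 arrays), and values of different probe sets are not on a common scale.

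Collagens are built of chains that wind around each other into a rope-like helix and are named by type and chain. Fibrillar types I, III and V form the tensile fibrils of connective tissue and are made mostly by fibroblasts and smooth muscle cells. Type IV forms the sheet-like network of basement membranes, which lie under epithelium and around muscle cells and vessels. Type VI forms beaded filaments beside them. In the prostate, glands are wrapped in a basement membrane and then in a coat of fibroblasts and smooth muscle, the main known source of collagen there.

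More collagen genes fell in MT than rose. Of the 36 genes, 17 fell and 1 rose, 18 in all where 41.1% of all genes passed, and the other 18 did not pass. The 17 that fell make 47.2% of the collagen genes, where 21.3% of all genes fell, and the share that rose was 2.78% against 19.7% of all genes. The differences had a median of -0.23 and ran from -1.13 to 0.37, beside a median of -0.01 over all genes. Falls of at least 2-fold were seen for Col18a1, Col4a5, Col6a1 and Col6a3, 4 of 36, against 2.25% of all genes, and no collagen gene rose by as much, against 2.83% of all genes. The 4 MT values lay wholly below the 4 wild-type values for 12 collagen genes, where the share over all genes was 20.4%. When a fit omitted both wild-type 4 and MT 2, arrays that earlier results had set apart by their adipocyte genes, 11 collagen genes were lower and 1 higher. In that fit, 2127 of all 12393 genes were lower and 2047 higher.

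**Figure D1:**
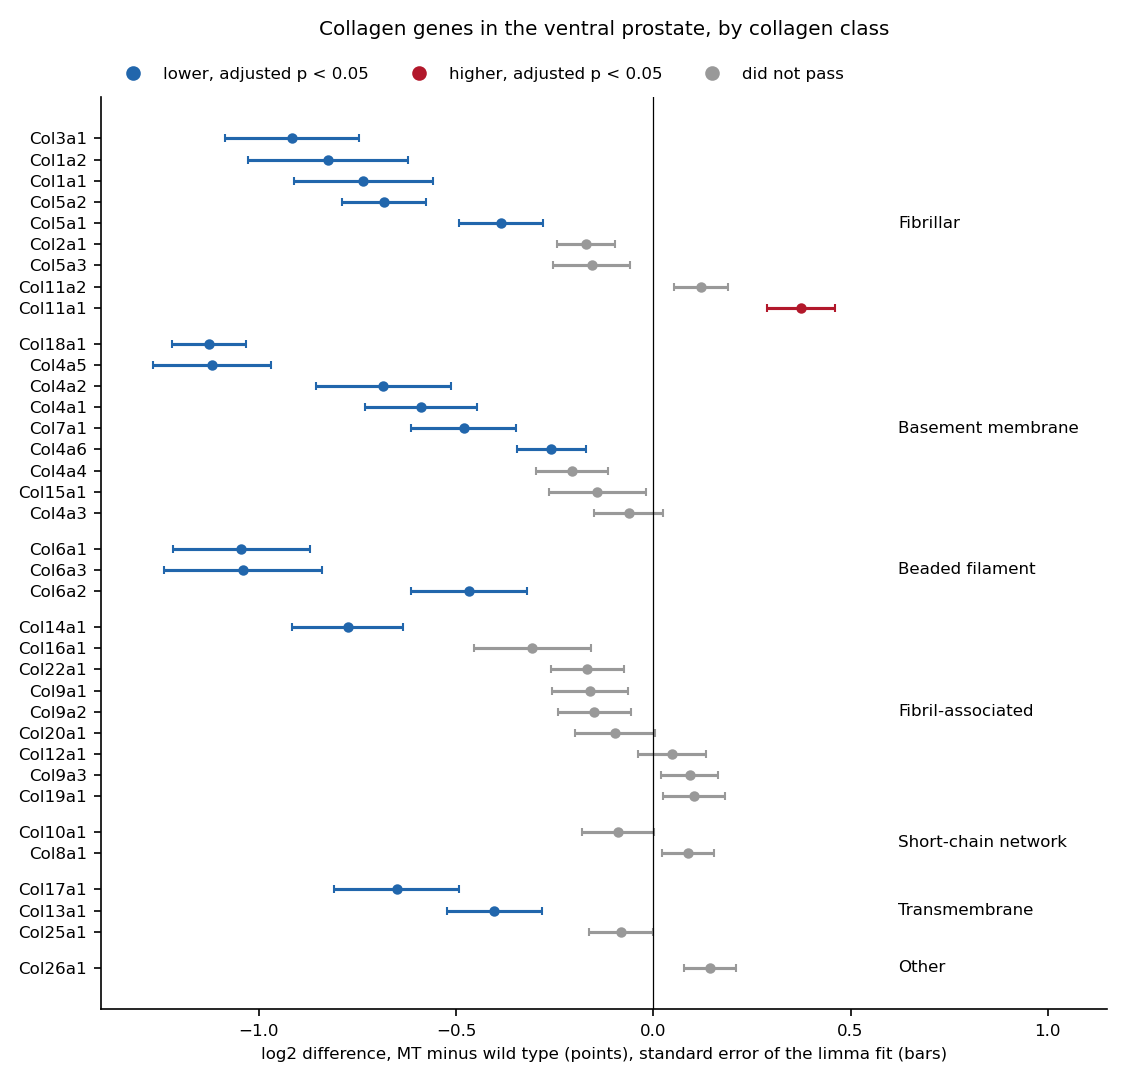
Log2 difference, MT minus wild type, of each of the 36 collagen genes (points) with the standard error of the limma fit (bars), grouped by collagen class. Blue points passed as lower (17 genes), red as higher (1 gene) and grey did not pass; the basement membrane, beaded filament and transmembrane classes lie wholly below 0.

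The fibrillar class split by chain. Of its 9 genes, 5 fell, 1 rose and 3 did not pass, with a median of -0.39. The 5 that fell were the chains of types I and III and the main chains of type V, which are laid down together in the fibrils of soft connective tissue. The other 4 were chains of types II and XI, which belong to cartilage fibrils, and the minor type V chain Col5a3.

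Col3a1, the single chain of type III, read 10.90, 10.56, 11.19 and 11.10 on the wild-type arrays and 9.67, 9.84, 10.14 and 10.43 on the MT arrays. All MT values lay below all wild-type values, and the mean went from 10.94 ± 0.28 to 10.02 ± 0.34 (SD, n = 4), a 1.89-fold fall (difference -0.92 ± 0.17, adjusted p = 0.00123). Col1a2, the second chain of type I, read 10.00, 9.34, 9.75 and 9.98 in wild type and 8.67, 8.60, 8.96 and 9.54 in MT. Here MT array 4 stood above wild-type array 2, so the groups overlapped, although the fall was 1.77-fold (-0.83 ± 0.20, adjusted p = 0.00670). The Col1a2 call did not survive omission of both wild-type 4 and MT 2 (-0.64, adjusted p = 0.0526).

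For Col1a1, the chain that makes up most of type I, the wild-type arrays read 8.48, 7.97, 8.14 and 8.60 and the MT arrays 7.12, 7.48, 7.69 and 7.95. The groups were separate only by a small margin between wild-type array 2 and MT array 4, and the difference was -0.74 ± 0.18 (adjusted p = 0.00594, 1.67-fold lower). Col5a2, a chain of type V, which helps to start fibrils and limit their width, read 7.78, 7.61, 8.02 and 7.80 in wild type and 6.99, 7.03, 7.07 and 7.39 in MT. Its groups did not overlap, and it had the smallest standard error of the 4 largest fibrillar falls (-0.68 ± 0.11, adjusted p = 0.000366). Its partner chain Col5a1 fell less far (-0.39 ± 0.11, adjusted p = 0.0127), and was not called once wild-type 4 and MT 2 were both omitted (-0.28, adjusted p = 0.0811).

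Col11a1, a chain of type XI that nucleates cartilage fibrils, was the 1 collagen gene that rose, and its values are given because it stood alone. It read 4.39, 4.28, 4.26 and 4.53 in wild type and 4.69, 4.77, 4.59 and 4.90 in MT, with no overlap (0.37 ± 0.09, adjusted p = 0.00445). These are low signals: 12 control probe sets for bacterial transcripts, which read background, ranged from 2.57 to 3.90. The second Col11a1 probe set was not above the highest such control of its array on any of the 8 arrays. It had a difference of -0.014 ± 0.066 (adjusted p = 0.893). The chains Col2a1 (-0.17 ± 0.07, adjusted p = 0.0855), Col5a3 (-0.16 ± 0.10) and Col11a2 (0.12 ± 0.07) did not pass. Col2a1 passed as lower without wild-type array 1 (-0.22, adjusted p = 0.0379).

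**Figure D2:**
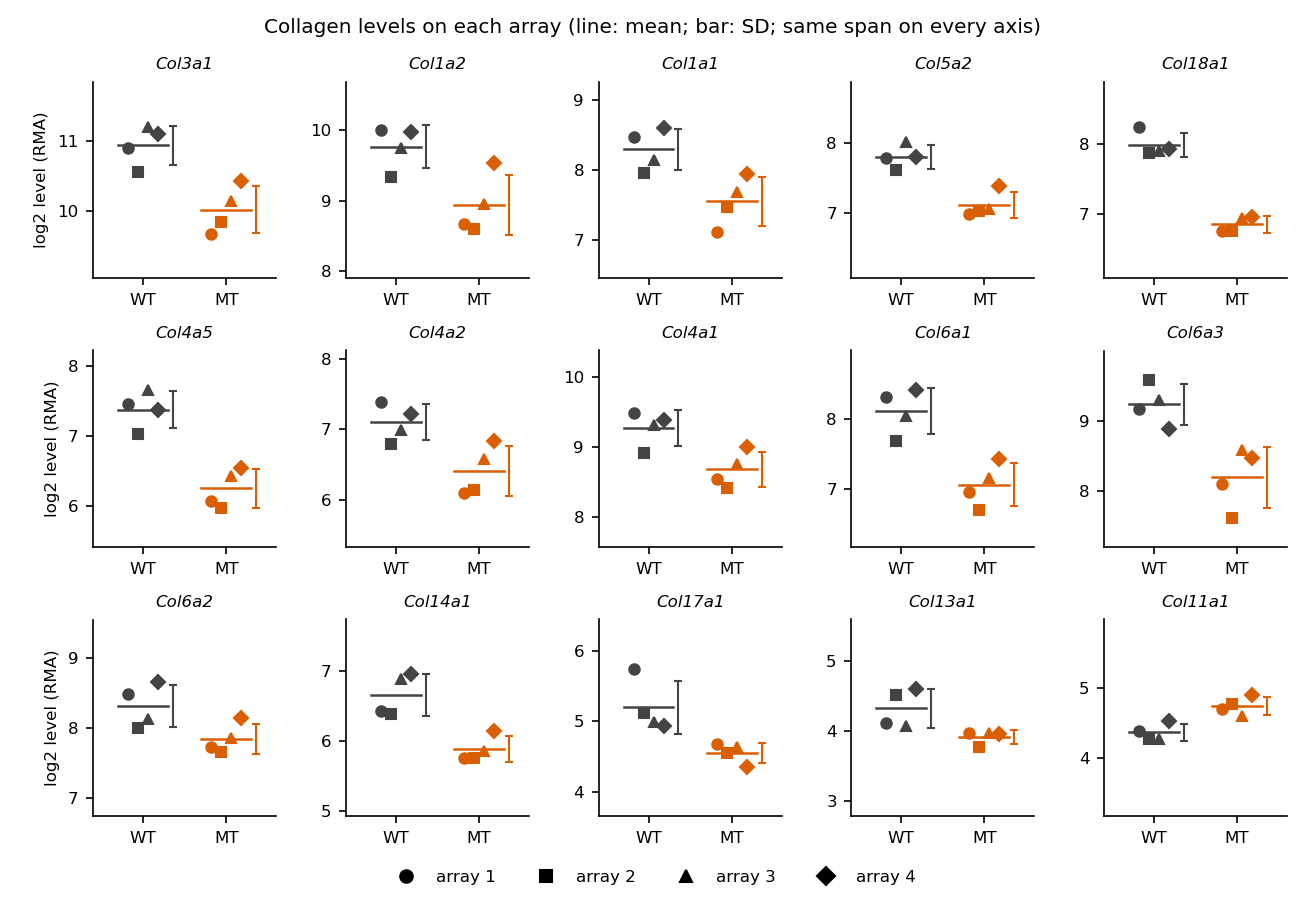
Log2 level on each of the 8 arrays for 15 collagen genes: all but Col11a1 were taken by the rule for named genes. Symbols mark array numbers, lines are group means and bars the SD of 4 arrays; all axes span the same number of log2 units. MT values lie below wild type for 14 of the 15 means, and MT array 4 (orange diamonds) is often the highest of its group.

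The promoters of fibrillar genes that fell together are shown to set their letters side by side. RefSeq (GRCm38.p6) windows were at hand for 27 of the 36 genes, and the 250 bases before the annotated start are printed here for Col1a2 (chr6:4505368-4505617, plus strand) and Col3a1 (chr1:45311288-45311537, plus strand). Capitals mark a CCAAT box (CCAAT or ATTGG), a GC box (GGGCGG or CCGCCC) or a TATA box (TATAAA or TTTATA), the letters searched on both strands.
Col1a2: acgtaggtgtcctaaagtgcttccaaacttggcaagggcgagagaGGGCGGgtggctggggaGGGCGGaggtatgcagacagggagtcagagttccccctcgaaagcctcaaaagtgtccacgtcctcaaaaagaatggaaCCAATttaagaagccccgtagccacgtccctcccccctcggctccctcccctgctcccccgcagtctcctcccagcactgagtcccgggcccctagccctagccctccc
Col3a1: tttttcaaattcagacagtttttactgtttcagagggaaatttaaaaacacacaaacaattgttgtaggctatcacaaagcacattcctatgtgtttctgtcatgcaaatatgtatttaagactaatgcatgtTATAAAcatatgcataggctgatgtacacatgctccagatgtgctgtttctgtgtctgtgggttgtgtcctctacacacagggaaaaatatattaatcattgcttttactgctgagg
The Col1a2 window is rich in G and C and holds GC boxes that begin 188 and 205 bases before the start and a CCAAT box 109 bases before it. The Col3a1 window is rich in A and T and holds a TATA box 117 bases before the start. These windows share none of the searched letters. Over all 32851 windows, 33.8% held a CCAAT box, 32.7% a GC box and 12.4% a TATA box. Among 16 windows of collagen genes that fell, 7, 9 and 3 held them, and among 14 windows of the other collagen genes, 5, 7 and 2 did. These matches describe letters and not sites in use.

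Chains of the basement membrane were lower too. All 9 differences were below 0, with a median of -0.48, and 6 genes fell while 3 did not pass. The class holds the largest fall of the 36 genes, Col18a1.

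Col18a1 encodes type XVIII, a heparan sulfate proteoglycan of epithelial and vascular basement membranes whose end fragment is endostatin. It read 8.24, 7.87, 7.90 and 7.93 on the wild-type arrays and 6.76, 6.76, 6.95 and 6.97 on the MT arrays. The gap between the groups was wide against their spread, and the fall was 2.18-fold (-1.13 ± 0.09, adjusted p = 3.32e-06). Its second probe set gave -1.09 ± 0.10.

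Col4a5, a type IV chain found in the basement membrane of smooth muscle and other tissues, read 7.45, 7.03, 7.65 and 7.37 in wild type and 6.07, 5.98, 6.43 and 6.55 in MT. The groups did not overlap, and the gene fell 2.17-fold (-1.12 ± 0.15, adjusted p = 0.000121). Its neighbour Col4a6, whose chain joins that of Col4a5, fell by less (-0.26 ± 0.09, adjusted p = 0.0353). The second Col4a6 probe set gave -0.50 ± 0.17 (adjusted p = 0.0394 in a limma fit over all probe sets). The Col4a6 call was lost with array weights (adjusted p = 0.0537) and when wild-type 1, 2 or 3 or MT 1 or 2 was omitted (0.0527 to 0.0924), and also with wild-type 4 and MT 2 both omitted (0.0998).

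The most widespread type IV network is built of the chains of Col4a1 and Col4a2. Col4a1 read 9.49, 8.91, 9.31 and 9.38 in wild type and 8.55, 8.42 and 8.76 on MT arrays 1 to 3, while MT array 4 was the highest of MT and stood above wild-type array 2 (-0.59 ± 0.14, adjusted p = 0.00612). Col4a2 read 7.38, 6.79, 6.99 and 7.22 in wild type and 6.10, 6.14, 6.58 and 6.83 in MT. The same arrays overlapped, and the fall was 1.61-fold (-0.69 ± 0.17, adjusted p = 0.00754). With wild-type 4 and MT 2 both omitted it was not called (-0.55, adjusted p = 0.0558).

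These genes lie head to head, and their RefSeq starts overlap by 22 bases (GRCm38.p6, chr8:11312805-11312826, plus strand), which are shown because both genes, which fell, begin within them. The GC box is in capitals.
Col4a2 start to Col4a1 start: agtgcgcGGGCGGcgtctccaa
Other collagen genes are neighbours as well. Among protein-coding genes of the RefSeq table, Col3a1 and Col5a2, Col6a1 and Col6a2, and Col4a5 and Col4a6 lie side by side, and both members of each fell. For the neighbours Col4a3 (-0.06 ± 0.09) and Col4a4 (-0.21 ± 0.09), chains of a network best known from kidney and lung, neither passed (adjusted p = 0.615 and 0.0928). The same was true of Col9a1 and Col19a1.

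Col7a1, the chain of the fibrils that anchor epithelial basement membrane to the tissue below, fell (-0.48 ± 0.13, adjusted p = 0.0136) with no overlap between groups. Col15a1, a proteoglycan of basement membranes around muscle and vessels, had a difference of -0.14 ± 0.12 (adjusted p = 0.395). Its wild-type arrays spanned 5.79 to 6.05, inside the MT span of 5.49 to 6.14.

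All 3 measured beaded filament chains fell, with a median of -1.04, while Col6a4, Col6a5 and Col6a6 were not measured. Col6a1 read 8.31, 7.68, 8.04 and 8.41 in wild type and 6.97, 6.71, 7.16 and 7.43 in MT, a 2.06-fold fall without overlap (-1.04 ± 0.17, adjusted p = 0.000595). Col6a3, the longest chain of type VI, read 9.17, 9.58, 9.29 and 8.88 in wild type and 8.10, 7.62, 8.58 and 8.46 in MT (-1.04 ± 0.20, adjusted p = 0.00153). Wild-type array 2 was the highest of its group here. Col6a2 read 8.48, 8.00, 8.13 and 8.65 in wild type and 7.74, 7.66, 7.86 and 8.14 in MT. Its groups overlapped (-0.47 ± 0.15, adjusted p = 0.0240), and the call was lost when wild-type 1 or 4 or MT 1, 2 or 3 was omitted (adjusted p between 0.0507 and 0.0717), or wild-type 4 and MT 2 together (0.147). The second Col6a2 probe set gave -0.59 ± 0.12 without overlap (adjusted p = 0.00202 in a limma fit over all probe sets).

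Of 9 fibril-associated chains, which sit on the surface of fibrils, 1 passed and the median was -0.15. This was Col14a1, at 6.43, 6.38, 6.88 and 6.95 in wild type and 5.76, 5.76, 5.86 and 6.15 in MT, with no overlap (-0.78 ± 0.14, adjusted p = 0.00100). Col16a1 had a difference of -0.31 ± 0.15 and missed the threshold (adjusted p = 0.122). It was called lower with the replicate number of the arrays as a block (adjusted p = 0.0366), without MT array 4 (-0.42, adjusted p = 0.0340) and without wild-type array 3 (-0.41, adjusted p = 0.0489). The other 7, the chains of type IX (Col9a1, Col9a2 and Col9a3) and Col12a1, Col19a1, Col20a1 and Col22a1, had differences between -0.17 and 0.10. Of these, Col9a2 was not above the highest bacterial control of its array on 2 wild-type and 3 MT arrays, and Col19a1 on 2 wild-type arrays.

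Transmembrane collagens are held in the cell membrane. Col17a1, a component of the hemidesmosomes by which basal epithelial cells hold to the basement membrane, read 5.75, 5.12, 4.99 and 4.94 in wild type and 4.67, 4.54, 4.63 and 4.35 in MT. The groups did not overlap (-0.65 ± 0.16, adjusted p = 0.00640). On the same arrays, basal epithelial genes were lower for 4 of 5, where 21.3% of all genes fell, and Krt14 did not pass (0.012 ± 0.125). A link between Col17a1 and these genes was not tested. Col13a1, found at sites of cell adhesion, read 4.11, 4.51, 4.07 and 4.60 in wild type and 3.97, 3.77, 3.98 and 3.96 in MT (-0.40 ± 0.12, adjusted p = 0.0187). Its groups lay close together near the background range, and the call was lost without MT array 2 (-0.35, adjusted p = 0.0580) and with wild-type 4 omitted too (-0.26, adjusted p = 0.118). Col25a1 did not pass (-0.08 ± 0.08). Neither did the short-chain network genes Col8a1 (0.09 ± 0.07) and Col10a1 (-0.09 ± 0.09), whose limma p-values were over 0.05 before adjustment as well. Col26a1 (0.14 ± 0.07) was not above the highest bacterial control on any array.

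Probe sets of a gene mostly shared a call. In a fit over all 22626 probe sets, 28 of the 58 collagen probe sets were lower and 1 higher, against 19.7% lower and 18.1% higher over all probe sets. Of 19 genes with several probe sets, all of them passed as lower for 10 genes (Col1a1, Col1a2, Col3a1, Col4a1, Col4a5, Col4a6, Col5a2, Col6a2, Col14a1 and Col18a1) and none passed for 7. The exceptions were Col11a1, described above, and Col5a1, of whose 3 probe sets 2 fell and 1 had a difference of -0.02 ± 0.09 (adjusted p = 0.887). The probe sets of Col5a3 had opposite signs, -0.16 ± 0.10 and 0.16 ± 0.07, and neither passed. Col3a1 gave -0.92 ± 0.17 and -1.11 ± 0.17, and Col4a1 gave -0.59 ± 0.14 and -0.35 ± 0.12. With wild-type 4 and MT 2 both omitted, 18 collagen probe sets passed. The share over all probe sets in that fit is not reported here.

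**Figure D3:**
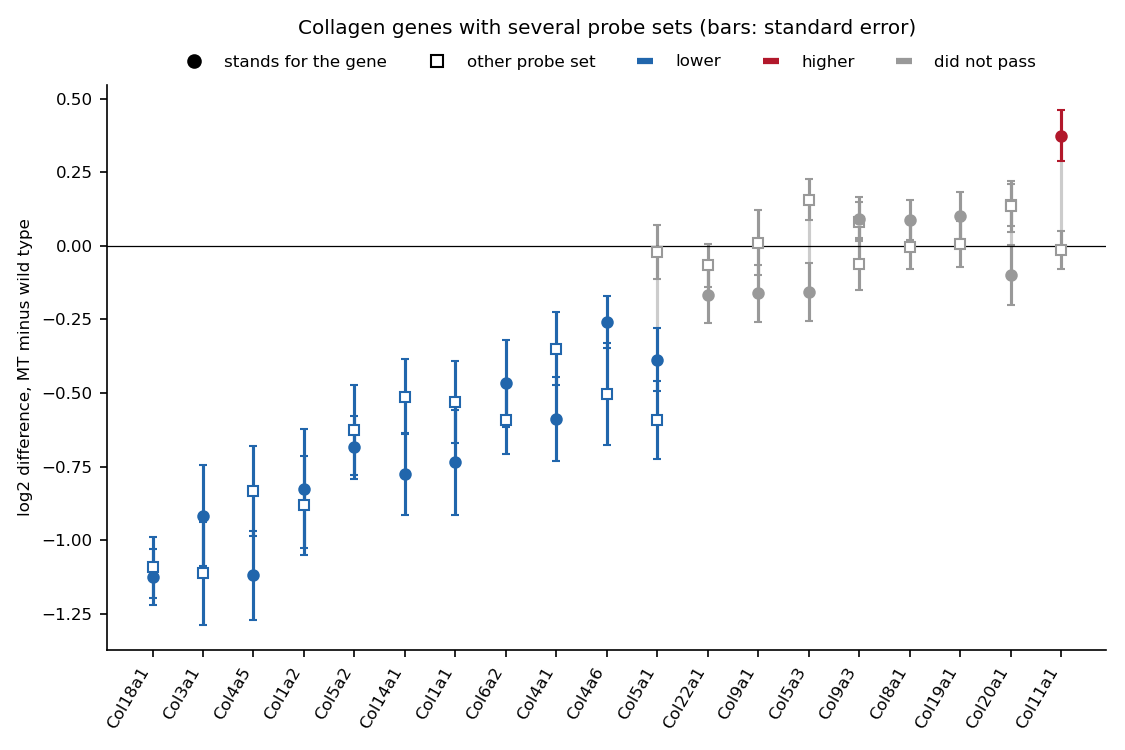
Log2 difference with its standard error for each probe set of the 19 collagen genes that have several, from the fit over all probe sets. Filled circles stand for the gene and open squares are its other probe sets. All probe sets of 10 genes are blue (lower), and Col5a1 and Col11a1 hold both a called and an uncalled probe set.

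The calls followed signal. Of the 14 collagen genes whose mean over the 8 arrays was above that of the median gene (6.63), 12 fell, against 28.9% of all genes at that level, and the exceptions were Col16a1 and Col25a1. Of the 22 at or below it, 5 fell and 1 rose, where 13.7% of all such genes fell.

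Within a group, many of the collagen genes that fell were lowest or highest on the same array. Of the 17 that fell, wild-type array 2 was the lowest of its group for 12, with a median deviation of -0.30 from the group mean, and MT array 4 was the highest of its group for 11, with a median deviation of 0.27. Whether genes at large shared this pattern was not tested. The mean of 10 smooth muscle genes was 10.07, 9.33, 9.69 and 9.95 on the wild-type arrays and 8.64, 8.33, 8.95 and 9.13 on the MT arrays. The mean of 12 fibroblast genes was 7.96, 7.60, 8.09 and 8.20, and then 6.70, 6.83, 7.01 and 6.98. In wild type, both means were lowest on array 2. So were those of the pericyte, endothelial, macrophage, granulocyte and skeletal muscle lists, but not of the remaining marker lists. In MT, the smooth muscle mean was highest on array 4 and the fibroblast mean on array 3. Without wild-type array 2, 16 collagen genes fell, and without MT array 4, 18 did. Of all 12393 genes, 2566 and 2330 fell in these fits.

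Genes that fold and export procollagen were lower as well. Of 18 measured genes for these steps in the endoplasmic reticulum, 12 fell and 1 rose, with a median of -0.55. Over all genes, 21.3% fell and 19.7% rose, and the counts of this and the following lists are read against those shares. Sec24d, a coat subunit of the vesicles that carry procollagen, fell from 9.47 ± 0.12 to 8.19 ± 0.14 (-1.27 ± 0.09, adjusted p = 7.61e-07). P3h4, part of a complex for lysine hydroxylation, fell from 8.01 ± 0.17 to 7.01 ± 0.15, and so did its partners Plod1 (-0.72 ± 0.08) and P3h3 (-0.82 ± 0.09), the last pair named after their values were seen. Plod2, the lysyl hydroxylase of the chain ends, was the 1 gene that rose, from 9.01 ± 0.13 to 10.23 ± 0.05 (1.22 ± 0.08, adjusted p = 3.92e-07). The prolyl hydroxylase chains P4ha1 (0.10 ± 0.15) and P4ha2 (-0.034 ± 0.152) did not pass, also named after their values were seen. The 4 measured luminal genes for secreted proteins (Spink1, Pbsn, Msmb and Azgp1), whose products use the same compartment, were lower on these arrays. Their part in these falls was not tested.

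For steps outside the cell, 7 of 11 measured genes of propeptide removal and cross-linking fell, with a median of -0.45. Pcolce, which speeds the cutting of the propeptide, fell by 0.92 on the log2 scale (standard error 0.21, adjusted p = 0.00449), and its relative Pcolce2 fell as well (-0.92 ± 0.20), not above the highest bacterial control on 3 of 4 MT arrays. Sparc, which binds collagen outside the cell, fell (-0.84 ± 0.22, adjusted p = 0.00898), but not once wild-type 4 and MT 2 were both omitted (-0.58, adjusted p = 0.0621). The fibril-coating proteoglycans and glycoproteins fell in 10 of 14 cases with a median of -0.89. They include Ogn (-1.83 ± 0.17), Dcn (-1.28 ± 0.09) and Tnxb (-1.12 ± 0.11), which help set the width and spacing of fibrils.

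More basement membrane partners of type IV fell than rose. Of 14 measured, 6 fell and 1 rose, with a median of -0.25. Nid1, which links laminin to type IV, fell from 7.84 ± 0.47 to 6.27 ± 0.20 (-1.57 ± 0.20, adjusted p = 7.01e-05), and Lama4, a laminin chain of vessels and muscle, fell (-1.04 ± 0.12). Agrn, a heparan sulfate proteoglycan, rose (0.84 ± 0.10, adjusted p = 3.48e-05).

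Of 6 collagen receptor genes 1 fell and 2 rose, where 21.3% and 19.7% of all genes did, which in so short a list is no result about receptors. Ddr1, a collagen receptor kinase of epithelium, rose by 0.26 ± 0.07, and Lair1, an inhibitory receptor of leukocytes, by 0.28 ± 0.07. The Lair1 signal was low, with means of 3.86 and 4.14, and 1 wild-type array was not above its highest bacterial control. Mrc2, which takes up collagen for breakdown, fell (-0.34 ± 0.12, adjusted p = 0.0361). That call was lost with averaged probe sets (adjusted p = 0.0610), and when wild-type 1 or 4 or MT 1, 2 or 3 was omitted (0.0668 to 0.101), or wild-type 4 and MT 2 together (-0.25, adjusted p = 0.199). Of 10 genes for collagen breakdown and its control, 3 rose and 2 fell, where 19.7% and 21.3% of all genes did, which is near these counts. The protease inhibitors Timp2 (1.09 ± 0.10, but 0.44 with averaged probe sets) and Timp1 (0.82 ± 0.08) rose, and Timp3 (-0.88 ± 0.17), an inhibitor bound to matrix, fell. Among 14 regulators of collagen transcription 4 fell and 1 rose, where the share that fell, 28.6%, was near the 21.3% of all genes. The growth factor Tgfb1, which induces collagen in fibroblasts, rose (0.78 ± 0.09), while Tgfb3 (-0.72 ± 0.11) and the transcription factor Klf4 (-0.90 ± 0.12) fell.

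**Figure D4:**
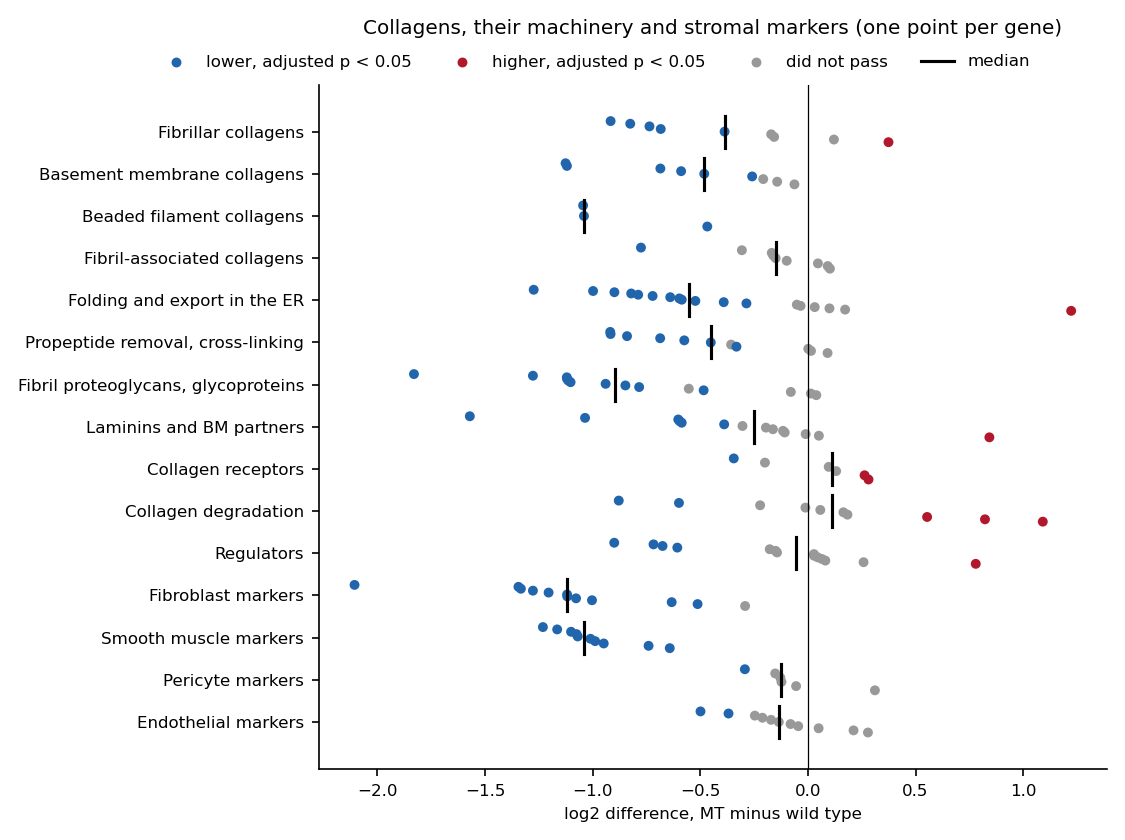
Log2 difference, MT minus wild type, of each gene in 4 collagen classes, 7 lists of collagen biology and 4 lists of stromal and vascular markers. Points are genes, coloured by call, and black bars are list medians. Medians are -1.12 for fibroblast and -1.04 for smooth muscle markers, and -0.13 for pericyte and -0.14 for endothelial markers.

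Markers of collagen-making cells moved with these results. Fibroblast genes were lower for 11 of 12 (median -1.12), with the array means given above. Dcn and Lum, both lower, are counted in this list and also among the fibril-coating proteoglycans. All 10 genes of the smooth muscle list fell (median -1.04). Dpt, which encodes a matrix protein of fibroblasts, fell by 2.11 on the log2 scale and Myh11, smooth muscle myosin, by 1.16. The pericyte list had 1 of 6 lower (Abcc9, -0.29 ± 0.10, lost when wild-type 1, 3 or 4 or MT 1, 2 or 3 was omitted, adjusted p between 0.0522 and 0.0939, and at background on 3 MT arrays), and the endothelial list 2 of 11 (Tek, -0.50 ± 0.12, and Cldn5, -0.37 ± 0.07). These shares, 16.7% and 18.2%, do not exceed the 21.3% of all genes that fell. In whole tissue, fewer cells of a type and less RNA per cell cannot be told apart. The part of these cells in the collagen falls was not tested.

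Epithelial and other markers are given for the same arrays. Luminal keratin and adhesion genes were higher for 8 of 8 (median 0.82; Krt8 1.01 ± 0.06 and Cldn4 1.26 ± 0.19), and Krt15 (from 9.40 ± 0.46 to 8.06 ± 0.15) and Krt5 (-1.07 ± 0.12) were among the 4 of 5 basal genes that fell. All 5 adipocyte genes were lower (median -1.58), with array means of 5.70, 6.68, 7.19 and 8.11 in wild type and 5.17, 6.10, 5.17 and 5.02 in MT, so that wild-type array 4 and MT array 2 were the highest of their groups. Of these, Adipoq (-2.49 ± 0.77) was not called with a robust prior (adjusted p = 0.10) or when wild-type 3 or 4 or MT 1, 3 or 4 was omitted (0.0579 to 0.0673), and its difference was -1.85 without wild-type 4 and -3.25 without wild-type 1. Fabp4 (-1.98 ± 0.54) was not called with unique-type probe sets (-0.10) or a robust prior (adjusted p = 0.0676), and was -0.98 with averaged probe sets. Macrophage genes were higher for 5 of 10 and lower for 1 (Ctss 2.40 ± 0.18, Cd14 1.30 ± 0.09), granulocyte genes higher for 3 of 7 (Ltf 4.05 ± 0.22, S100a8 3.33 ± 0.14), T cell genes for 3 of 5 (Cd3g 0.76 ± 0.21, Cd4 0.28 ± 0.06, but 0.13 with averaged probe sets, adjusted p = 0.0613) and B and plasma cell genes for 1 of 4 (Jchain 2.97 ± 0.25). The other 4 granulocyte genes (Ngp, Camp, Elane and Mpo) did not pass, with differences of 0.07 to 0.20. The Schwann and nerve list had 1 of 4 higher (Mbp 0.43 ± 0.07, but -0.0052 with averaged probe sets). Skeletal muscle genes were lower for 2 of 6 (Acta1, -1.06 ± 0.28, and Myh2, -0.85 ± 0.09, at background on all 4 MT arrays). In the mast cell and seminal vesicle lists limma called 0 of 5 and 0 of 5, with 1 and 0 members at an unadjusted p under 0.05. Tpsb2, the brightest of the first, had a difference of -0.064 ± 0.071 and Svs5, of the second, 0.0009 ± 0.10, and 3 of the seminal vesicle genes were not above the bacterial controls on any array. The ventral lobe secretory list was measured for 5 of 7 names. Its array means were at least 12.49 in wild type and at most 10.69 in MT. The 4 genes for secreted proteins fell, among them Pbsn (-4.16 ± 0.29) and Spink1 (-3.03 ± 0.09). The 1 that rose was Hoxb13 (0.26 ± 0.06, adjusted p = 0.00425), a transcription factor that the list and its means include.

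As a measure of RNA quality, the Gapdh probe set at the 3' end exceeded that at the 5' end by 0.54 to 0.92 in wild type, and in MT by 0.45 to 0.64 (exact permutation test, two-sided, p = 0.0857). For Actb the excess was 0.71 to 1.05, then 0.57 to 0.85 (exact permutation p = 0.114). The smallest p that the 70 assignments of arrays to groups allow is 0.0286. Array medians lay between 6.21 and 6.23.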

How the data were processed

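The deposited values, one column per array, are log2 signals per probe set made with RMA (background correction, quantile normalization and a summary over probes), per the submitters' processing notes, from Affymetrix arrays, per the labels' protocols; no version is named there. Quantile normalization sets each array's distribution, so differences are relative to the other genes. Of 22690 rows, 64 were controls and 20380 had a single symbol, 691 several and 1555 none in the platform annotation; 20351 gene identifiers were found in the RefSeq table and changed 0 symbols.

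The values were used without filter or rescaling and fitted with limma 3.58.1 (R 4.3.3; lmFit and eBayes, no covariate, two-sided) over 12393 genes, and in a second fit over 22626 probe sets. For arrays, their number limits the precision. Tables and figures used Python 3.11.15, pandas 2.3.3 and matplotlib 3.10.9. Counts of members are read against the counts over all genes.

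The members and lists were chosen with earlier results of these data known. Named were, in each collagen class, up to 4 genes past the threshold with the largest change, with Col1a1, Col1a2, Col3a1, Col4a1, Col4a2 and Col18a1; of 7 pathway lists up to 3 and of 16 marker lists up to 2 such genes, or the member with the highest mean. A planned ranking of genes by correlation with Col1a1 and Col4a1 was left out, since the arrays fall into 2 separate groups.

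The titles carry numbers 1 to 4 within either group. Deviations from the group mean correlated at 0.10 to 0.18 between same-numbered arrays in 4 of 4 pairs, all over 0.1, and 8 of 8 arrays correlated best with their own number. The number was therefore used as a replicate block in an alternative fit; this pairing rests on the data, as no label states a shared litter or batch. The closing section gives the effect of the alternatives.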

Additional observations from a re-analysis of the deposited data

Results flagged for a closer look

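In groups of 4 arrays, an array was singled out when its gap to the nearest other array, over the group's range, passed the critical value of Dixon's test. Chance gives about 1 in 20 groups; 10 of 168 tested met it. Among collagens, Col18a1 on wild-type array 1 read 8.24 (others 7.87 to 7.93), Col13a1 on MT array 2 read 3.77 (others 3.96 to 3.98) and Col26a1 on MT array 2 read 3.31 (others 3.46 to 3.48). Dcn on wild-type array 2 read 11.49 (others 11.78 to 11.81). On MT array 2, the adipocyte genes Adipoq and Fabp4 read 6.70 (others 4.22 to 4.60) and 8.23 (others 6.63 to 6.90), S100a8 read 6.99 (others 7.59 to 7.70) and Mbp read 8.04 (others 8.21 to 8.24). Mbp on wild-type array 2 read 7.90 (others 7.68 to 7.71), and Cd4 on MT array 1 read 5.59 (others 5.68 to 5.69).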

How the results depend on the processing

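With the replicate number as a block, 19 collagen genes passed, 18 of them lower and 1 higher, against 18 genes without it. Of all 12393 genes, 2721 were lower and 2490 higher with the block. All 18 genes called without the block kept their call, and Col16a1 joined them. Of those 18 genes, 11 (Col1a1, Col3a1, Col4a1, Col4a5, Col5a2, Col6a1, Col6a3, Col7a1, Col11a1, Col14a1 and Col18a1) kept their direction and call under each of 16 alternatives, namely another prior, array weights, averaged or unique-type probe sets, median centring, renewed quantile normalization, the block, each array left out, and wild-type array 4 and MT array 2 left out together. Under that last setting, 11 collagen genes were lower and 18 collagen probe sets passed, while 2127 of all 12393 genes were lower and 2047 higher. With each array left out in turn, from 14 to 18 collagen genes were lower and 1 higher, and the median difference ran from -0.28 to -0.20. Over all 12393 genes, 2299 to 2566 were lower and 2177 to 2406 higher in these fits. At a threshold of 0.01, 12 collagen genes were lower and 1 higher. The shares of all genes that were lower or higher at 0.01 are not reported here. These counts therefore cannot be read against them. Among genes above the median level, 14 collagen genes were tested: 12 were lower and 0 higher (Col11a1 was not among them), with a median of -0.71. Of all 6196 genes in that fit, 1924 were lower and 1811 higher. Unique-type probe sets measured 30 of the 36 genes, without Col6a2 and Col17a1. Of changed calls among marker genes, those of Adipoq, Cd4 and Abcc9 stand beside their values above; Tpsb2 was higher with unique-type probe sets (0.21, adjusted p = 0.0352), Mbp had a difference of -0.0052 with averaged probe sets, and Fabp4 lost its call with unique-type probe sets (-0.10, adjusted p = 0.562) and with the robust prior (adjusted p = 0.0676). The cause of these changes was not tested. Signals near the bacterial controls, as for Col9a2, Col13a1, Col19a1 and Col26a1, limit what can be read from those genes.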
